A study of Mus musculus with 9 samples.

Results

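Transcripts of 6 genes of the common gamma chain cytokine system were followed in naive, deletion and anergy CD8 T cells of the mouse: the cytokines Il2 and Il21, and the receptor chains Il2ra, Il2rb, Il7r and Il4ra. They were chosen by name, with earlier results of these data known. A probe set was taken as a member where the RefSeq accession in its identifier belongs to any of these genes. This gave 6 probe sets, 1 per gene, of 1246 probe sets and 909 named genes on the array. The 9 arrays held purified CD8 T cells of the B10D2 strain, all with a transgenic T cell receptor and all labelled female, in 3 groups of 3. The control group held naive cells. In the deletion group the cells had received a weak signal from their cognate antigen in vivo, and in the anergy group a strong one. The labels give no time of stimulation, no age, no name of the receptor or the antigen, and no word on whether animals were pooled. Replicates are numbered, but nothing says that they are different animals, so the p-values reflect the spread among these samples, which may be technical. Values of a group are given in the order of replicates 1 to 3.

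Interleukin-2 is a growth factor made by activated T cells. Its receptor is built from an alpha chain (Il2ra, CD25) that raises the affinity, and from a beta chain (Il2rb, CD122) and the common gamma chain (Il2rg) that carry the signal. The beta chain also serves interleukin-15. The interleukin-7 receptor (Il7r, CD127) sustains resting naive and memory T cells, the interleukin-4 receptor alpha chain (Il4ra) serves interleukin-4 and interleukin-13, and interleukin-21 acts through its own chain (Il21r). All of these cytokines but interleukin-13 are known to use the common gamma chain, and in CD8 T cells the balance of these receptors is a classical mark of rest, activation and memory.

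The values are log2 expression after RMA, a normalization that gives 1 value per probe set and array, so a difference of 1 is a 2-fold change. On these arrays values ran from 1.67 to 13.86, with array medians of 4.44 to 4.58. A difference was said to pass when its p-value from limma, adjusted by Benjamini-Hochberg over all 1246 probe sets, was under 0.05. No detection call was used. The lower quartiles of the arrays were 3.19 to 3.29, and Il2 and Il21 lay below them on every array. Whether the differences of such dim probe sets reflect the real ones was not tested. Anergy replicate 3 stood apart, with a residual SD of 0.166 against 0.094 to 0.128 on the other 8 arrays. A listed gene is called measured here where a named probe set holds it, and the 283 probe sets without a name were not searched. Of 9 listed CD8 T cell markers only Cd2 was measured in this sense. It was at 11.53 to 11.68 in naive, 9.82 to 10.38 in deletion and 9.33 to 9.48 in anergy arrays. Against naive it was 2.97-fold lower in deletion and 4.53-fold lower in anergy (limma adjusted p = 1.7e-05 and 1.0e-06). With that gene alone, which itself changed, the label of the cells could not be checked. In such bulk samples, fewer cells of a type and less RNA per cell cannot be told apart.

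Against naive cells, deletion cells had more Il2rb and Il2 and less Il7r and Il4ra, and anergy cells had more Il2rb, Il2ra and Il21 and less Il7r and Il4ra. Thus 4 of the 6 members passed in deletion, where 19.0% of all probe sets did, and 5 of the 6 passed in anergy, where 26.8% did. The call of Il2 in deletion was fragile and held in only 10 of 16 alternative settings. Between the treatments, Il2ra and Il21 passed and both were lower in deletion, 2 of 6 against 3.37% of all probe sets. Lower probe sets alone made up 1.28% of the array in that comparison. Because the members were chosen with earlier results of these data known, these shares describe them and are no test of the set. The median change of the members was 0.04 in deletion and 0.35 in anergy against naive, and -0.22 in deletion against anergy, beside -0.02, 0.01 and -0.01 over all probe sets. Both comparisons with naive cells share the naive arrays, so their values are given side by side and not as separate evidence.

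**Figure D1:**
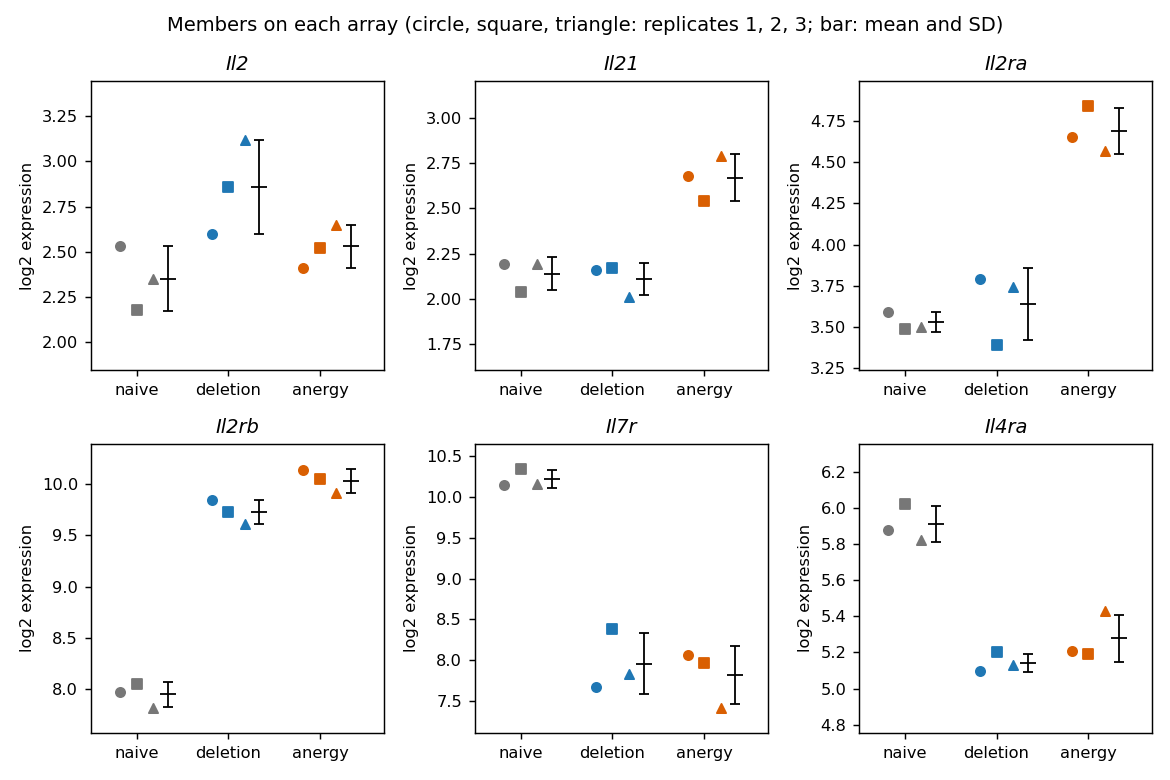
Log2 expression of each of the 6 members (vertical axis, a separate scale per gene) on the 9 arrays by group; circles, squares and triangles are replicates 1, 2 and 3, and the bar is the group mean with its SD. Il2ra and Il21 were higher on the 3 anergy arrays than on all others, with Il21 dim throughout. Il2rb was high and Il7r and Il4ra were low on all 6 arrays of treated cells, and Il2 lay between 2.18 and 3.12 throughout.

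Among the cytokines, Il2 was dim on every array. Its log2 values were 2.53, 2.18 and 2.35 in naive cells, 2.60, 2.86 and 3.12 in deletion cells, and 2.41, 2.52 and 2.65 in anergy cells. All deletion arrays lay above all naive arrays, the closest pair by little, while the anergy arrays overlapped both other groups. Il2 was 1.42-fold higher in deletion than in naive cells (95% limits 1.15 to 1.75; 2.86 ± 0.26 against 2.35 ± 0.18; SD, n = 3 each; limma adjusted p = 0.0240). This call was lost without naive replicate 2 (adjusted p = 0.101), naive replicate 3 (0.0721), deletion replicate 2 (0.0673) or deletion replicate 3 (0.0815). In anergy cells the difference from naive was 0.17 ± 0.13 on the log2 scale (SE; limma adjusted p = 0.435). Deletion and anergy differed by 0.33 ± 0.13 (95% limits 0.03 to 0.63; adjusted p = 0.255), so a difference of Il2 between the treatments was not shown. Only 12.2% of the probe sets on the array were dimmer on average, and 89.6% had a smaller spread between replicates.

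Il21, a cytokine better known from helper T cells, was dimmer still, with 6.18% of probe sets below it. Its log2 values were 2.19, 2.04 and 2.19 in naive cells and 2.16, 2.17 and 2.01 in deletion cells. On the anergy arrays they were 2.68, 2.54 and 2.79. Naive and deletion arrays covered the same narrow range, and every anergy array lay above it. Anergy was 1.44-fold above naive (1.27 to 1.64; 2.67 ± 0.13 against 2.14 ± 0.09; SD, n = 3 each; limma adjusted p = 0.000791). Deletion was 1.47-fold below anergy (1.29 to 1.67; limma adjusted p = 0.00514), and 13 of 1246 probe sets were further below. Between deletion and naive the difference was -0.03 ± 0.08 (SE; 95% limits -0.21 to 0.16). With the replicate number as a block and the deletion and anergy arrays alone, a fit added after the data were seen, the treatments differed by -0.56 ± 0.10 and the call was lost (limma adjusted p = 0.0515). The anergy array that stood apart held the highest Il21 value, and without it the difference was -0.50 (adjusted p = 0.0161).

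Il2ra, the affinity-raising alpha chain, was likewise higher in anergy alone, at a brighter level. The values were 3.59, 3.49 and 3.50 in naive cells, 3.79, 3.39 and 3.74 in deletion cells, and 4.65, 4.84 and 4.57 in anergy cells. Naive and deletion arrays overlapped, with the lowest value of all in deletion replicate 2, and the anergy arrays stood clear of both. Anergy exceeded naive 2.23-fold (1.88 to 2.65; 4.69 ± 0.14 against 3.53 ± 0.06; SD, n = 3 each; limma adjusted p = 2.7e-05). Deletion lay 2.07-fold below anergy (1.74 to 2.45; adjusted p = 0.000525 by limma), and 5 probe sets of 1246 differed further in that direction. Against naive the deletion change was 0.11 ± 0.11 (SE; 95% limits -0.13 to 0.36, which exclude a rise of the size seen in anergy). Unlike Il21, the call between the treatments held with the block in the 2 treated groups (limma adjusted p = 0.0271) and in all other settings tried. CD4 and regulatory T cells are known for Il2ra, and of 5 markers listed for them 0 were measured, so their part in this difference was not tested.

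The 250 bases before the start site of Il21 and Il2ra are printed here because these genes alone among the 6 passed between the treatments. They are RefSeq sequences of the GRCm38.p6 build, in the direction of the gene, at chr3:37232637-37232886 on the minus strand for Il21 and chr2:11642542-11642791 on the plus strand for Il2ra. Capitals mark GGAAA or its reverse complement TTTCC, the core letters bound by NFAT, a factor of T cell receptor signalling.
Il21: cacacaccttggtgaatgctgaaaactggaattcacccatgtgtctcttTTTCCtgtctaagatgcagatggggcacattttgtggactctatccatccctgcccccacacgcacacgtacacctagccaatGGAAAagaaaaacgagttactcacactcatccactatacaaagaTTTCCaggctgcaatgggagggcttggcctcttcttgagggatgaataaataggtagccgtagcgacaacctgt
Il2ra: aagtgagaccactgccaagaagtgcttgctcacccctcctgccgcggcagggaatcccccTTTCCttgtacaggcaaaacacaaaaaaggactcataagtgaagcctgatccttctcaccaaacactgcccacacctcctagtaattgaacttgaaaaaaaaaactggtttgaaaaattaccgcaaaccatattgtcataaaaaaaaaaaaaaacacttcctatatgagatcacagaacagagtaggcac

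Il21 held 3 such matches, beginning 201, 118 and 74 bases upstream of the start, and Il2ra held 1, at 190 bases upstream. Such a match stands in 61.3% of all 32851 RefSeq windows of 300 bases (250 before and 50 after a start), so it does not set these promoters apart. In the same windows neither gene had the letters TTCNNNGAA (STAT5, 8.30% of all windows), TGANTCA (AP-1, 7.81%) or GTAAACA (FOXO, 3.65%) on either strand. The Il2 window held 2 NFAT core matches, at 137 and 47 bases upstream, and none of the other 3 motifs. A match is a description of letters and not of a bound site. Windows were matched for 5 of the 6 genes, all but Il2rb.

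Il2rb, the signalling chain shared by interleukin-2 and interleukin-15, rose in both treatments. Its log2 values were 7.97, 8.05 and 7.82 in naive cells, 9.85, 9.73 and 9.61 in deletion cells, and 10.14, 10.05 and 9.91 in anergy cells. The groups did not overlap in any pair, and deletion lay between the other two. The rise over naive was 3.44-fold in deletion (2.99 to 3.96; 9.73 ± 0.12 against 7.95 ± 0.12; SD, n = 3 each; limma adjusted p = 3.1e-07) and 4.25-fold in anergy (3.69 to 4.89; 10.03 ± 0.12; adjusted p = 8.6e-08). Of 1246 probe sets, 20 rose further in deletion and 16 rose further in anergy.

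Whether Il2rb differed between the treatments depended on the fit. Deletion was 0.30 ± 0.09 lower than anergy on the log2 scale (SE; 1.23-fold, 95% limits 1.07 to 1.42), with a limma adjusted p of 0.114. All 3 deletion arrays lay below all 3 anergy arrays, as 5.62% of probe sets did. Deviations of same-numbered deletion and anergy arrays correlated weakly (r from 0.195 to 0.280), and a pairing was not shown. With the replicate number as a block over all 9 arrays the difference passed (limma adjusted p = 0.0344). It did not pass with the block in the 2 treated groups alone (adjusted p = 0.0784). Natural killer cells also carry Il2rb. The summed level of their 2 measured markers of 4 listed, Klrd1 and Klra8, was 11.34 to 11.51 in naive, 10.17 to 10.53 in deletion and 10.39 to 10.54 in anergy arrays. That sum follows Klrd1, which fell by 1.04 on the log2 scale in deletion and fell by 0.92 in anergy, while the dim Klra8 was at -0.09 and -0.15 and did not pass. Other receptor genes of natural killer cells were on no list and were chosen after their values were seen. Some were higher than in naive cells: Klrc1 by 3.01 in deletion and 4.88 in anergy, and Klrk1 by 0.29 and 0.79. Klrc3 was higher by 0.07 and 0.63, and Klra6 by 0.16 and 0.29. Others were lower or mixed: Klra17 at -0.11 and -0.13, and a probe set of Klra10 at -0.23 and -0.20. Klrg1 was at -0.12 and 0.06, Klra9 at 0.31 and -0.33, and Klrb1f at 0.21 and -0.03. Further genes of these families are not named, and many of these changes are small. The part of natural killer cells in the Il2rb values was not tested.

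Il7r, the receptor of resting T cells, fell in both treatments and had the largest change of the 6 members. Naive arrays gave 10.14, 10.34 and 10.15, deletion arrays gave 7.67, 8.38 and 7.83, and anergy arrays gave 8.07, 7.97 and 7.42. Every treated array lay far below every naive array, and the treated groups overlapped, with the lowest treated value in anergy replicate 3 and the highest in deletion replicate 2. The fall was 4.76-fold in deletion (3.48 to 6.50; 7.96 ± 0.37 against 10.21 ± 0.11; SD, n = 3 each; limma adjusted p = 2.3e-05) and 5.24-fold in anergy (3.84 to 7.16; 7.82 ± 0.35; adjusted p = 1.2e-05). Only 8 probe sets fell further in deletion and 9 in anergy. Between the treatments the difference was 0.14 ± 0.20 (SE; 95% limits -0.31 to 0.59; adjusted p = 0.790), limits that leave room for a 1.51-fold difference. The spread was wide: 97.7% of probe sets had a smaller residual SD than the 0.302 of Il7r.

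Il4ra, the chain shared by interleukin-4 and interleukin-13, fell less. It was at 5.88, 6.02 and 5.82 in naive cells, at 5.10, 5.20 and 5.13 in deletion cells, and at 5.21, 5.19 and 5.43 in anergy cells. The treated arrays overlapped each other and lay below all naive arrays. The fall was 1.70-fold in deletion (1.49 to 1.93; 5.14 ± 0.05 against 5.91 ± 0.10; SD, n = 3 each; limma adjusted p = 8.9e-05) and 1.55-fold in anergy (1.36 to 1.76; 5.28 ± 0.13; adjusted p = 0.000258). Deletion and anergy differed by -0.13 ± 0.08 (SE; 95% limits -0.32 to 0.05; adjusted p = 0.475). B cells express Il4ra too. The summed level of 4 measured B cell markers of 9 listed was 9.25 to 9.41 in naive, 8.66 to 9.17 in deletion and 8.55 to 8.76 in anergy arrays. Within that list Cd72 fell by 1.56 on the log2 scale in deletion and fell by 1.64 in anergy, Cd22 rose by 1.17 and 0.98, and Cxcr5 rose in deletion. The part of B cells in the Il4ra values was not tested. For 6 measured macrophage, dendritic cell and granulocyte markers of 12 listed, the summed level was 6.78 to 6.88 in naive, 6.72 to 7.03 in deletion and 6.67 to 6.94 in anergy arrays. Within it the dim Siglecf rose, by 0.33 in deletion and 0.39 in anergy (limma adjusted p = 0.0293 and 0.00856), and the other 5 did not pass.

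The upstream sequences of the receptor chains that fell in both treatments are printed for comparison, again from RefSeq on GRCm38.p6 and in the direction of the gene: chr15:9529877-9530126 on the minus strand for Il7r and chr7:125552021-125552270 on the plus strand for Il4ra. Capitals mark TTCNNNGAA, the letters of a STAT5 element, and the NFAT core GGAAA.
Il7r: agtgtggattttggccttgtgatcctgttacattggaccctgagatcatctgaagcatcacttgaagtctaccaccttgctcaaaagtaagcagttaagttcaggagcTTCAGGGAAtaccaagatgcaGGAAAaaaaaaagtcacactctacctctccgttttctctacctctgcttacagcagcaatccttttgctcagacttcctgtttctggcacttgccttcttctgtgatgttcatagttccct
Il4ra: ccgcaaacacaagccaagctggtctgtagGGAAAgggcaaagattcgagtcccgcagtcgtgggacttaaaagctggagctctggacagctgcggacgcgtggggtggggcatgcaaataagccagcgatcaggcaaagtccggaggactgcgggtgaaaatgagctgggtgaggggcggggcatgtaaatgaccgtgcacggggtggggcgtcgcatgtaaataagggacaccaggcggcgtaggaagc

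The Il7r window held the only STAT5 match among the 5 genes, beginning 142 bases upstream of the start, and an NFAT core at 121 bases upstream. Il4ra held an NFAT core 221 bases upstream and another within the 50 bases after the start, which are not printed. Neither window held the FOXO or AP-1 letters, which says only that those letters are not in these windows.

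**Figure D2:**
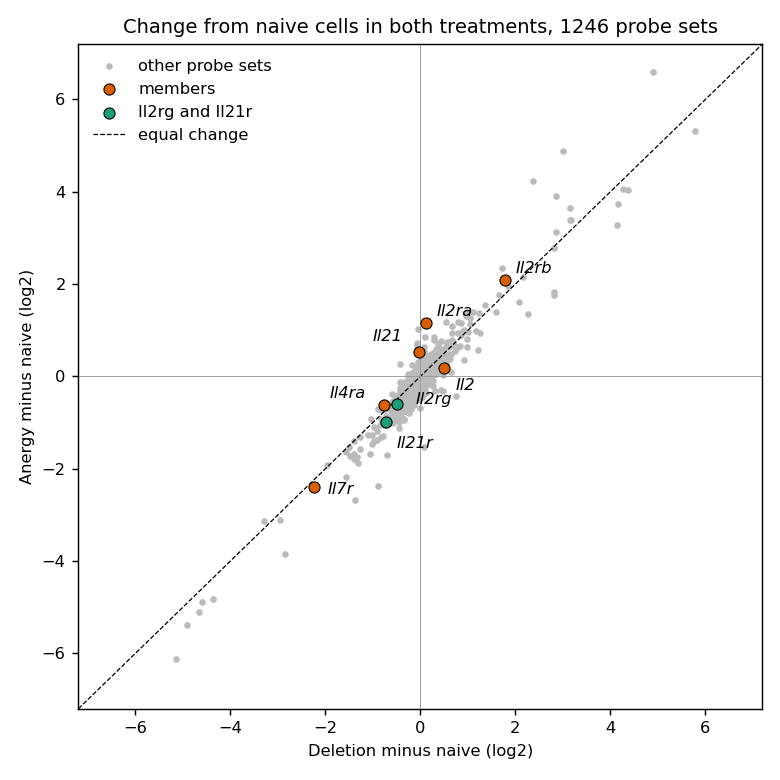
Change from naive cells in deletion (horizontal axis) and in anergy (vertical axis), both in log2 units, for all 1246 probe sets, with the 6 members in orange and Il2rg and Il21r in green; the dashed line marks equal change. Both axes use the same naive arrays. Il2rb (1.78 and 2.09), Il7r (-2.25 and -2.39) and Il4ra (-0.76 and -0.63) lay near the line, while Il2ra (0.11 and 1.16) and Il21 (-0.03 and 0.53) lay above it.

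The other genes of the system were taken from a list of 13 cytokines and receptor chains, of which 10 were measured. Against naive cells 2 of the 10 fell and 0 rose in each treatment, and both were receptor chains: Il2rg and Il21r. A share of 2 in 10 is near the 19.0% of all probe sets that passed in deletion and below the 26.8% in anergy, so it is no result about this list. The median change of the 10 was 0.00 in both comparisons. Between deletion and anergy 0 of the 10 passed in limma, against 3.37% of all probe sets, and 1, Il21r, had an unadjusted p under 0.05.

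Il2rg, the common gamma chain itself, was bright in every group. Its values were 12.20, 12.38 and 12.29 in naive cells, 11.72, 11.80 and 11.89 in deletion cells, and 11.80, 11.64 and 11.63 in anergy cells. All treated arrays lay below all naive arrays, and the treated groups overlapped. The fall was 1.40-fold in deletion (1.24 to 1.58; limma adjusted p = 0.00127) and 1.52-fold in anergy (1.35 to 1.71; adjusted p = 0.000220). The chains that pair with it to bind interleukin-2 thus did not move with it: Il2rb rose in both treatments, and Il2ra rose in anergy.

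Il21r, the receptor chain of interleukin-21, fell 1.66-fold in deletion (1.46 to 1.89; limma adjusted p = 0.000128) and 1.99-fold in anergy (1.75 to 2.26; adjusted p = 1.1e-05). It gave 9.52, 9.75 and 9.70 in naive cells, 8.88, 8.98 and 8.91 in deletion cells, and 8.70, 8.76 and 8.53 in anergy cells. The 3 groups did not overlap, with anergy lowest, in the group where Il21 itself was highest. Deletion exceeded anergy by 0.26 ± 0.08 (SE; 95% limits 0.07 to 0.45) without passing (adjusted p = 0.136). The other probe set of the gene fell by 0.77 in deletion and by 1.06 in anergy on the log2 scale.

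For Il15ra, which presents interleukin-15 to cells with Il2rb, the brighter probe set changed by -0.19 ± 0.09 in deletion and by -0.22 ± 0.09 in anergy (SE; limma adjusted p = 0.217 and 0.116). Its other probe set passed in deletion alone, at -0.31 ± 0.09 (adjusted p = 0.0455). Il15 was at -0.19 and -0.20 against naive and did not pass. The cytokines Il4, Il7 and Il13 and the chains Il9r, Il13ra1 and Il13ra2 changed by 0.10 at most in either treatment. None of the 13 listed signal transducers, such as Jak3 and Stat5a, was among the named probe sets.

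**Figure D3:**
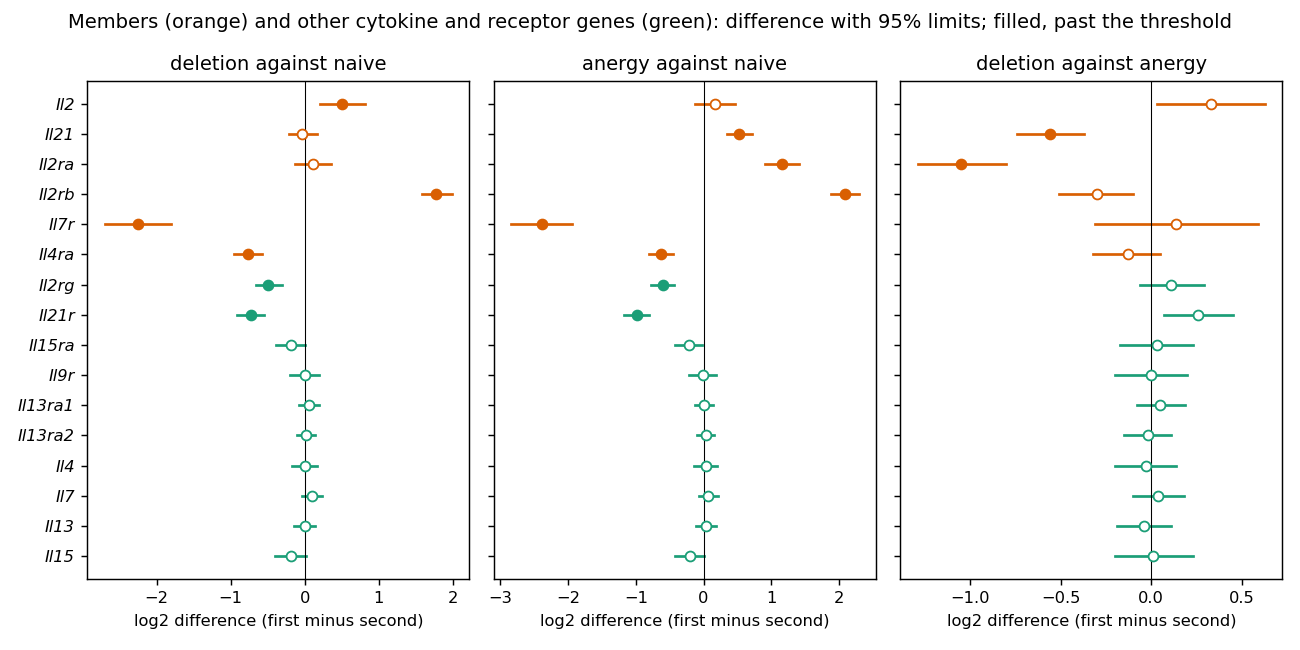
Log2 differences (horizontal axes, first group minus second) with 95% limits for the 6 members (orange) and 10 other cytokine and receptor genes (green) in the 3 comparisons; filled points passed the threshold. Both treatments show the rise of Il2rb and the falls of Il7r, Il4ra, Il2rg and Il21r, and only Il21 and Il2ra are filled in deletion against anergy.

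Of 20 listed genes known as targets of these cytokines in T cells, 6 were measured. In deletion 2 rose and 1 fell, where 19.0% of all probe sets passed, and in anergy 3 rose and 2 fell, where 26.8% did. Ifng (4.38 ± 0.33 and 4.03 ± 0.33, SE) and the adhesion receptor Cd44 (1.85 ± 0.17 and 1.97 ± 0.17) rose in both. The lymph node homing receptor Ccr7 fell by 0.99 on the log2 scale in deletion and fell by 1.40 in anergy. Prdm1, the transcription factor Blimp-1, known to be induced by interleukin-2 and interleukin-21, was the 1 of these 6 to pass between the treatments, as 3.37% of all probe sets did, lower in deletion by 0.80 ± 0.12 (SE; limma adjusted p = 0.00514). Its means were 4.24 in naive, 4.16 in deletion and 4.96 in anergy cells, higher in anergy alone, as for Il2ra and the dim Il21. A link of Prdm1 with these genes was not tested. The early activation marker Cd69 passed in neither (limma adjusted p = 0.605 in deletion and 0.189 in anergy). Its change was -0.44 ± 0.41 in deletion and -0.82 ± 0.41 in anergy (SE). All its anergy values (7.44 to 8.33) lay below all naive values (8.54 to 8.91), and the deletion values spread from 7.76 to 9.44.

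The genes whose pattern lay nearest to each member were found by the root mean square (RMS) difference in log2 units over the 9 arrays, after the naive mean of each probe set was subtracted. For Il2ra they were the chemokine receptor Ccr6 (0.14), the chondroitin sulfotransferase Chst12 (0.23) and the inhibitory receptor Havcr2 (0.23), which changed by 1.02, 0.85 and 0.86 in anergy and by -0.05, 0.28 and 0.10 in deletion. For Il2rb they were Cd44 (0.20), the chemokine receptor Cxcr3 (0.21) and the interleukin-18 receptor chain Il18r1 (0.23). For Il21 they were a probe set of Aldoa (0.13), Cx3cr1 (0.15) and Il10 (0.16), and Il10 changed by 0.02 in deletion and by 0.35 in anergy.

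Nearest to Il7r lay the interferon-gamma receptor chain Ifngr2, at an RMS difference of 0.42, with -1.96 in deletion and -1.93 in anergy. Cd2 (0.53) and the sialyltransferase St8sia1 (0.57) came next. The RMS difference also holds the spread between replicates, which was wide for Il7r (residual SD 0.302). The distances of Il7r are thus not comparable with those of the other members. The nearest to Il4ra were Smo (0.10), Angptl6 (0.10) and the other interferon-gamma receptor chain, Ifngr1 (0.13), which changed by -0.63 and -0.71. For Il2 they were Bmp7 (0.10), Wnt10a (0.10) and B4galt4 (0.14). These neighbours were picked for their likeness, so no test was made on it.

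**Figure D4:**
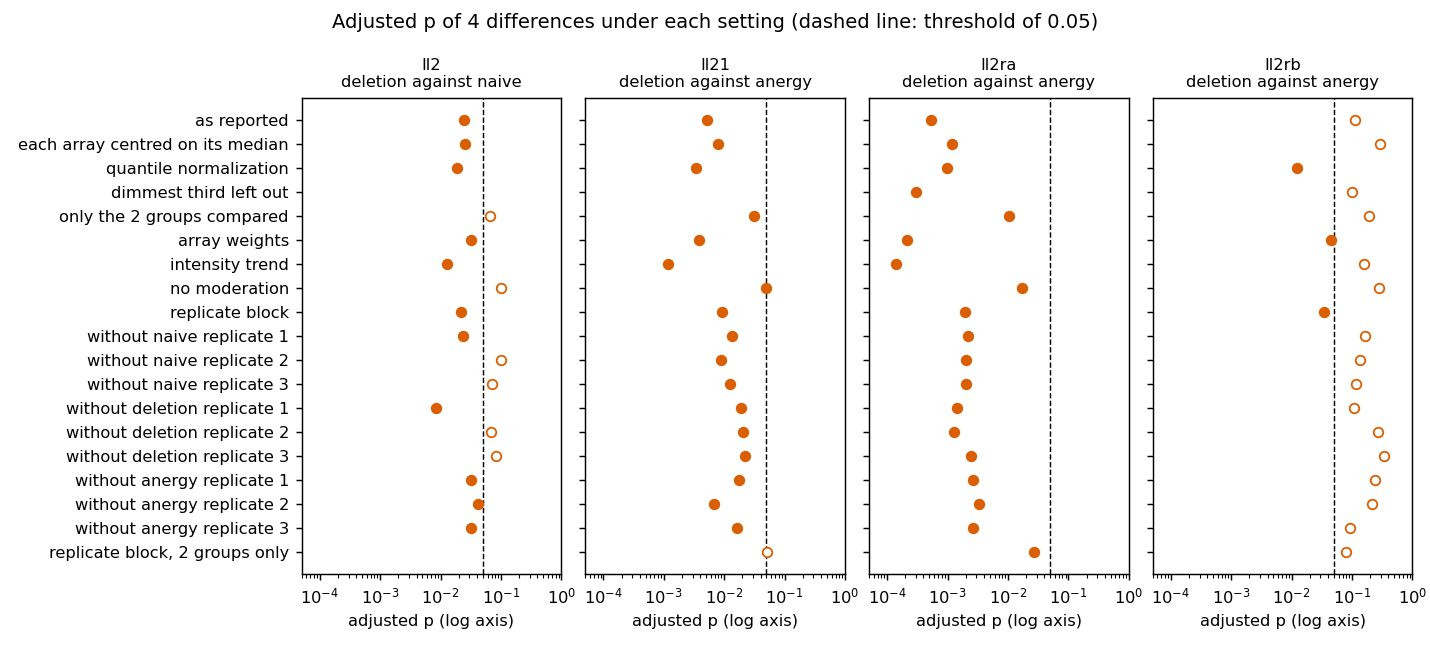
Adjusted p (horizontal axes, log scale) of 4 differences under each setting (rows): Il2 in deletion against naive, and Il21, Il2ra and Il2rb in deletion against anergy. Filled points are under the dashed threshold of 0.05. Il2ra stayed under it throughout, Il21 crossed it in 1 setting at 0.0515, Il2 crossed it in 6, and Il2rb passed in 3.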

How the data were processed

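RNA of 9 samples was hybridised to single-colour Affymetrix arrays of a custom design, GLYCOv4, per the labels. The deposited values are log2 expression. The submitters' processing notes name RMA; a version, the array annotation and filters are not given in the sources used here. Arrays have no sequencing depth, and their number, 3 per group, limits the precision: the median SE of a difference between deletion and anergy was 0.087.

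A RefSeq gene table of GRCm38.p6 gave names to 963 of the 1246 probe sets (77.3%), through the unversioned accession in the identifier. Where a gene had several probe sets, the one with the highest mean stood for it. Values were used as deposited, without a filter. All 9 arrays entered 1 fit per contrast by limma 3.58.1 (R 4.3.3; lmFit, eBayes), two-sided and without a block, with 6 residual and 3.65 prior degrees of freedom and Benjamini-Hochberg adjustment. The fit was tested on simulated data with independent noise, for deletion against naive alone, so deletion against anergy was not covered. Summed marker levels are log2 of the sum of the linear values.

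The named genes were the 6 members, listed pathway genes that passed in any comparison, and the 3 nearest patterns of each member. Il15ra, Il15, Cd69, listed markers and genes named for not passing were added after their values were seen. The result of 1 single gene that the rule named is not reported here. The members and lists were chosen with earlier results of these data known. Deviations from the group means of same-numbered deletion and anergy arrays correlated at r = 0.195, 0.270 and 0.280. For naive and anergy arrays r was -0.154, 0.274 and 0.175, and for naive and deletion arrays -0.136, 0.118 and -0.142. Arrays of different numbers were not compared, so a pairing was not shown. The labels state no pairing either, and the block was used as an alternative only. The alternatives were 2 scalings, a filter on dim probe sets, fits of 2 groups, array weights, an intensity trend, no moderation, a replicate block and leaving out each array.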

Additional observations from a re-analysis of the deposited data

How the results depend on the processing

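No difference of a member that passed changed its direction under any setting tried. The count of 2 members that passed between deletion and anergy became 1 when the dimmest probe sets were left out, which removed Il2 and Il21 and left 4 members in the test, and 1 with the replicate block in the 2 treated groups alone (Il21 at an adjusted p of 0.0515), a setting added after the data were seen. It became 3 with quantile normalization, array weights and the replicate block over all 9 arrays, where Il2rb passed (adjusted p = 0.0124, 0.0450 and 0.0344). Leaving out each array in turn left that count at 2, the anergy count at 5 and the deletion count at 3 to 4. Il2 in deletion against naive also lost its call when only the 2 groups were fitted (adjusted p = 0.0647) and with no moderation (0.0992); the cause was not tested. The replicate block changed no other call of a member.

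Across the whole array, deletion exceeded anergy at 26 probe sets and lay below it at 16. The split was 13 and 13 after median centring and 32 and 38 after quantile normalization. The higher count was 8 with the 2 groups alone, 44 with array weights, 5 with no moderation, 13 with the block in the 2 treated groups, 8 and 14 without deletion replicates 2 and 3, and 15 and 17 without anergy replicates 2 and 3. The lower count was 31 with array weights and 9 with no moderation. Il2 and Il21 lay near the dim end of the arrays, with 12.2% and 6.18% of probe sets dimmer on average.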
